A study of Mus musculus with 6 samples.

Results

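The 9 genes followed here mark disease-associated microglia and were measured across single-cell RNA libraries of the inflamed and the healthy mouse spinal cord. They are Cst7, Itgax, Clec7a, Trem2, Tyrobp, Cd9, Cd63, Igf1 and Cd72. The members were taken by gene symbol, and all 9 were found among the 38293 gene IDs of the files. The cells came from C57BL/6 mice aged 10 weeks. Some mice were healthy and others had just reached onset in EAE (experimental autoimmune encephalomyelitis), induced with a myelin peptide and used as a model of multiple sclerosis. Live cells were stained with 10 uM DCFDA, which turns fluorescent on oxidation by reactive oxygen species (ROS). They were then sorted on the myeloid surface protein CD11b and on the dye. There were 6 libraries, 2 each for EAE ROS+, EAE ROS- and healthy ROS- cells, which make 3 groups. No healthy ROS+ library was analysed here, so the healthy group has no counterpart for the ROS+ gate. The labels do not tie a group's libraries to separate mice, so every p-value measures only the spread between these libraries, which may be technical.

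Disease-associated microglia are a state of the brain's resident macrophages that was described around amyloid plaques, in demyelinated tissue and in ageing. Entry into the full state is known to need Trem2, a surface receptor for lipids and apolipoproteins that signals through the adaptor Tyrobp (DAP12). Clec7a (Dectin-1) is a receptor for fungal beta-glucans that signals through its own motif and the kinase Syk. Itgax is the CD11c chain of a complement-binding integrin, and Cd72 is a C-type lectin-like inhibitory receptor best known from B cells. Cd9 and Cd63 are tetraspanins, found at the cell surface and on late endosomes and lysosomes respectively. Cst7 encodes cystatin F, an inhibitor of lysosomal cathepsins, and Igf1 encodes a secreted growth factor. Several of these genes are also expressed by monocytes, dendritic cells or natural killer cells, so their levels are given here by cell class.

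The letters just upstream of 5 members are shown because 4 of them, Cst7, Itgax, Clec7a and Cd72, rose most in EAE microglia while Trem2 fell there. Each is the 250 bases before the RefSeq start of the gene on mouse build GRCm38.p6, read on the gene's own strand, 5′ to 3′. Capitals mark GAGGAA, the core letters bound by the myeloid factor PU.1, or TGANTCA, on either strand. N is any base, so TGANTCA includes the AP-1 site but is looser than it.
Cst7: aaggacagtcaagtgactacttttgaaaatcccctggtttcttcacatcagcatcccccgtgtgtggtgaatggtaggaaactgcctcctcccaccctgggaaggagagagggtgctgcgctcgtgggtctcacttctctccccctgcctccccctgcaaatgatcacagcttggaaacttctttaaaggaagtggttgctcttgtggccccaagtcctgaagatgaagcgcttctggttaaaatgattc
Itgax: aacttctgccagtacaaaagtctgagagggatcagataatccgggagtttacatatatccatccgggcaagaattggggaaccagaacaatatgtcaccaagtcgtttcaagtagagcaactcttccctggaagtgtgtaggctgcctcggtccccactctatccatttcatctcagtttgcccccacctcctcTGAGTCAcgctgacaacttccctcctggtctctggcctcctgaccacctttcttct
Clec7a: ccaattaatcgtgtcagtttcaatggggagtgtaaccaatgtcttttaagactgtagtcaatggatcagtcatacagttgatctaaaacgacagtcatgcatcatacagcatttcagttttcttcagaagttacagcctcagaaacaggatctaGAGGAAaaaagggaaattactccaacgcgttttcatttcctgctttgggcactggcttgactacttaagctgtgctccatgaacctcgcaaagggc
Cd72: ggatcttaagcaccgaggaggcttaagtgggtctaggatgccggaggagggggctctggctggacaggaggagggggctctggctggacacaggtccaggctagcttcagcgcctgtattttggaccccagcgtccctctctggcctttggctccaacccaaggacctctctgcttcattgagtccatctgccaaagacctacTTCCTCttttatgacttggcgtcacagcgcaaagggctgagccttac
Trem2: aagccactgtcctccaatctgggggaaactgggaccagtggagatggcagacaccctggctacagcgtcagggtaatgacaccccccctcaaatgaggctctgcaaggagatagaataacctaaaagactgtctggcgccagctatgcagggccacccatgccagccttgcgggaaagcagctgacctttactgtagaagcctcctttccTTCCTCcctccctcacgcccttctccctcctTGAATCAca

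The Cst7 window is chr2:150570165-150570414 on the plus strand, the Itgax window chr7:128129300-128129549 (plus), the Clec7a window chr6:129472780-129473029 (minus), the Cd72 window chr4:43454627-43454876 (minus) and the Trem2 window chr17:48346151-48346400 (plus). GAGGAA was present once in the windows of Clec7a, Trem2, Igf1 and Cd72 and was found 2 times in that of Cd63. TGANTCA was present once in those of Itgax, Trem2 and Igf1. CACGTG, the letters of an E-box, was in none of the 8 members' windows, and those of Cst7 and Cd9 held none of the 3 motifs. Of all 32851 promoter windows of the same length, 23.3% held GAGGAA, 6.75% TGANTCA and 6.02% CACGTG, so single matches are common. Tyrobp had no entry. In the annotation used (GENCODE M21, GRCm38, the same coordinates as mm10), Cst7 lies at chr2:150570415-150578944, Itgax at chr7:128129547-128150657, Clec7a at chr6:129461591-129472779, Trem2 at chr17:48346401-48354147 and Tyrobp at chr7:30413760-30417585. Cd63 lies at chr10:128900989-128912822 and Igf1 at chr10:87858265-87937042, with the antisense gene Igf1os over it. Cd9 at chr6:125460266-125494791 is overlapped on the other strand by Gm28809 and Gm26728, and Cd72 at chr4:43446462-43454628 by Tesk1. The sources used here do not say how reads in these overlaps were assigned.

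Cells were sorted into classes by fixed marker genes that include none of the 9 members. A cell with UMIs (unique molecular identifiers, each standing for 1 captured transcript) of at least 2 of 9 microglia markers and fewer than 2 of 8 monocyte markers was called microglia, the reverse monocyte-derived, and a cell with at least 2 of both dual-marker. This gave 187 and 71 microglia in EAE ROS- replicates 1 and 2, and 1744 and 134 in the healthy replicates, but only 0 and 1 in EAE ROS+. Dual-marker cells numbered 370 and 121 in the EAE ROS+ pair and 692 and 349 in the EAE ROS- pair, against 6 and 1 for the healthy pair. Monocyte-derived cells numbered 1052 and 1830 with the ROS+ gate, 480 and 869 with the ROS- gate in EAE, and 0 in both healthy libraries.

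The libraries held 202 to 2233 cells after filtering, with a median of 2178 to 9543 UMIs per cell, the healthy libraries being shallowest. The 8 monocyte markers together made up 251 and 301 UMIs per 1000000 UMIs (CPM) in EAE microglia and 27.0 and 29.5 CPM in healthy microglia. The 9 microglia markers together were at 2954 and 3047 CPM in EAE microglia, below 9993 and 10836 CPM in healthy ones. Microglia of healthy replicate 2, the smallest library, also held endothelial markers at 181 CPM against 10.2 CPM in replicate 1. In that library 66 cells had been set aside by the endothelial markers. These 66 held Trem2 at 2833 CPM, within the 2336 to 3113 CPM of healthy microglia, so the markers do not show them to be endothelial cells. By the UMI share rule given below, 4 cells of the library were endothelial and 194 microglia. The endothelial markers also set aside 232 and 169 cells in EAE ROS+ replicates 1 and 2 and 99 in each EAE ROS- replicate. By UMI share 1 cell was endothelial in EAE ROS+ replicate 1 and 0 in the other EAE libraries. Those set aside held Clec7a at means of 1038 (ROS+) and 1290 CPM (ROS-), beside 1020 and 1317 CPM in monocyte-derived cells. The markers do not show these to be endothelial cells either. In EAE ROS- microglia the endothelial markers summed to 9.27 and 13.2 CPM, with Cldn5, Itm2a and Slco1a4 at 0. The markers of border macrophages summed to at most 1.85 CPM in the microglia of any of these libraries. The series' design text gives 8701 cells, and 9078 were kept here. Library pairs shared 0 to 7 cell barcodes.

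A deeper cell has more chances to meet the 2-marker rule on both sides. The median UMIs of EAE ROS- microglia were 5097 and 3802, below the 8540 and 7358 of dual-marker cells. A second rule, added after the data were seen, used the share of microglia markers among all microglia and monocyte marker UMIs of a cell. By it, at least 0.8 made a cell microglia and at most 0.2 monocyte-derived. Of the dual-marker cells of EAE ROS- libraries, 217 of 692 and 109 of 349 had a microglia share of at least 0.8, and 197 and 100 had one of at most 0.2. Of those of EAE ROS+ libraries, 11 of 370 and 5 of 121 were at 0.8 or above, and 273 and 86 at 0.2 or below. So the dual-marker class is a mixture whose makeup differed between the gates, and its values are given with that makeup in view.

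**Figure D1:**
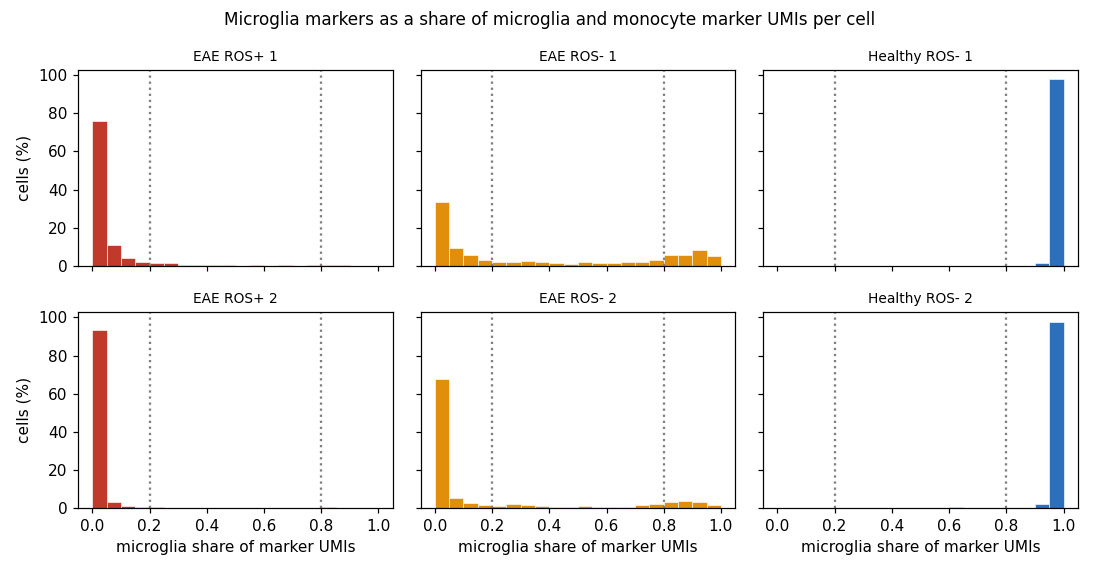
Distribution over cells of the microglia share of marker UMIs (x axis, from 0 to 1) in each library, as a percentage of its kept cells (y axis). Dotted lines stand at 0.2 and 0.8; cells of the EAE ROS- libraries lie at both ends and between, those of the EAE ROS+ libraries near 0 and those of the healthy libraries near 1.

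In microglia at EAE onset, 5 of the 8 members that could be tested rose over healthy microglia, Trem2 fell, and Tyrobp and Cd9 did not pass the test. Across all 7515 genes tested in that comparison, 11.8% were called higher and 9.13% lower (p under 0.05 after Benjamini-Hochberg adjustment, from edgeR's quasi-likelihood test). The median log2 fold change of the 8 members was 2.57, beside -0.05 over all genes tested. Igf1 had too few UMIs to be tested. The members were named in earlier work for rising in such cells, so the direction of most of them was known beforehand.

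The receptor and its adaptor did not rise. Trem2 was at 1417 and 896 CPM in the microglia of EAE ROS- replicates 1 and 2 and at 2336 and 3113 CPM in those of healthy replicates 1 and 2. Both EAE values lay below both healthy ones. The log2 fold change was -1.05 ± 0.28 (SE, n = 2 against 2 libraries; edgeR adjusted p = 0.00959). The call for Trem2 was lost without EAE ROS- replicate 2 (-0.66, edgeR adjusted p = 0.236) and without healthy replicate 2 (-0.78, edgeR adjusted p = 0.0524), so it rested on those libraries. Tyrobp, which passes on the signals of Trem2 and several other receptors, was at 4081 and 2812 CPM in EAE and 3449 and 4323 CPM in healthy microglia. The groups overlapped, with a log2 fold change of -0.00091 ± 0.26 (edgeR adjusted p = 0.999).

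Clec7a was at 323 and 205 CPM in EAE microglia and 31.6 and 39.4 CPM in healthy microglia. The groups did not overlap, and the log2 fold change was 3.19 ± 0.31 (edgeR adjusted p = 1.88e-07), a 9.12-fold rise. Monocyte-derived cells of the same EAE ROS- libraries held far more of it, 923 and 1710 CPM. The level in EAE microglia was 35.0% and 11.98% of that in monocyte-derived cells. For 3 genes of monocytes and macrophages that served no class rule, the same percentages were 5.22% and 4.75% (Arg1), 11.5% and 10.5% (Lyz2, which microglia also express) and 12.2% and 5.27% (S100a4). Clec7a stood well above these in replicate 1 and near that of Lyz2 in replicate 2. The part of free RNA in its rise was not tested.

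Itgax rose from 4.09 and 5.91 CPM in healthy to 79.8 and 52.9 CPM in EAE microglia. The healthy values rest on 18 and 3 UMIs and the EAE values on 86 and 16, and the groups did not overlap. Its log2 fold change was 4.19 ± 0.43 (edgeR adjusted p = 3.62e-07), and 3.58 without EAE ROS- replicate 1 (edgeR adjusted p = 0.00866). Here the level in EAE microglia was 186% and 88.8% of that in the monocyte-derived cells of the same library, above the percentages of Arg1, Lyz2 and S100a4. By UMI share these percentages of Itgax were 167% and 54.9%. Cells with T and NK markers in the same libraries held Itgax at 32.3 to 83.6 CPM. The part of free RNA in the rise of Itgax was not tested. Cd72 rose from 18.4 and 17.7 CPM to 320 and 271 CPM, with no overlap. Its log2 fold change of 4.22 ± 0.31 (edgeR adjusted p = 2.54e-09) is an 18.6-fold rise.

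Of the tetraspanins, Cd63 rose and Cd9 was not called. Cd63 was at 1591 and 1500 CPM in EAE microglia and at 421 and 472 CPM in healthy microglia, with no overlap and a log2 fold change of 1.96 ± 0.25 (edgeR adjusted p = 5.92e-06). Cd9 was at 2418 and 1097 CPM in EAE and at 1425 and 1992 CPM in healthy microglia. The EAE libraries lay on either side of the healthy ones, and its log2 fold change of 0.23 ± 0.32 did not pass (edgeR adjusted p = 0.658). That these tetraspanins differ in their change was not tested.

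Cst7, the cathepsin inhibitor, was at 724 and 314 CPM in EAE microglia and at 11.8 and 55.1 CPM in healthy microglia. All EAE values were above all healthy ones, but the replicates differed among themselves, most in the healthy pair, where 52 UMIs came from 1744 cells and 28 UMIs from 134 cells. The log2 fold change was 4.70 ± 0.53 (edgeR adjusted p = 1.15e-06). It was 3.41 without healthy replicate 1, 5.73 without healthy replicate 2 and 3.86 without EAE ROS- replicate 1, called each time, so the size of the Cst7 rise depended on those libraries. Igf1 was seen as 11 and 0 UMIs in EAE microglia and 6 and 0 in healthy microglia. The 0 counts allow up to 9.91 CPM in EAE ROS- replicate 2 and 5.91 CPM in healthy replicate 2 (3 counts of the total), so a difference was not detectable at this depth.

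With microglia called by the UMI share, 394 and 170 EAE cells stood against 1739 and 194 healthy ones, and the same 5 rose and Trem2 fell. The log2 fold changes were then 4.50 for Cst7, 4.16 for Itgax, 3.05 for Clec7a, 1.97 for Cd63, 4.03 for Cd72 and -0.95 for Trem2 (edgeR adjusted p = 0.0213 for Trem2, smaller for the others).

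**Figure D2:**
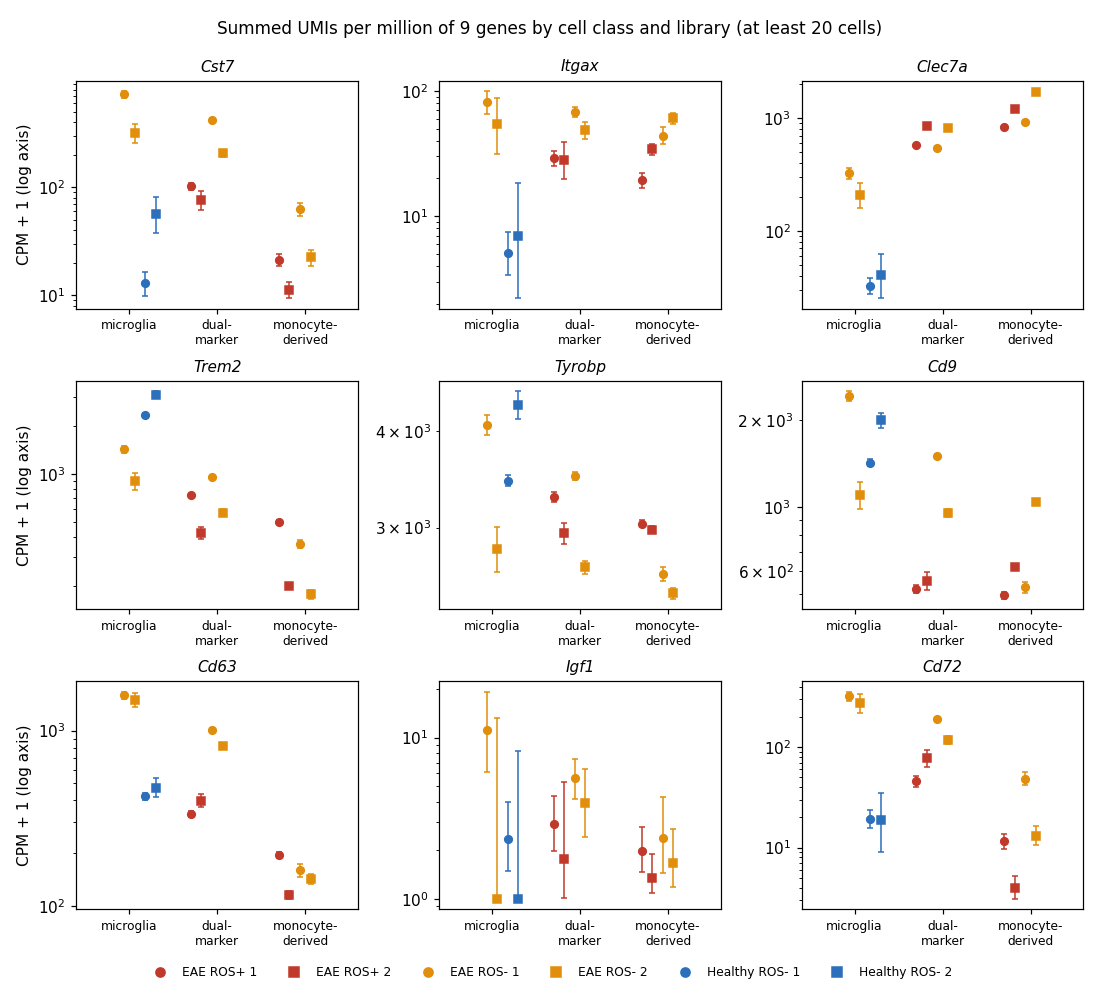
Level of each member as CPM plus 1 (log y axis) in microglia, dual-marker and monocyte-derived cells (x axis); each point is 1 library, coloured by group, and the bar is the exact Poisson 95% interval, which covers counting error only. EAE microglia lie above healthy microglia for Cst7, Itgax, Clec7a, Cd63 and Cd72 and below them for Trem2.

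Single cells showed how widely the members were seen. Each cell was thinned to 1500 UMIs so that depth was equal, which left out 207 and 10 healthy microglia that were shallower. Intervals are exact Clopper-Pearson 95% intervals and cover counting error only. A Cst7 UMI was seen in 52.4% (45.0 to 59.7) and 33.8% (23.0 to 46.0) of EAE ROS- microglia and in 1.496% (0.951 to 2.24) and 4.84% (1.80 to 10.2) of healthy microglia. Before thinning these shares of Cst7 were 81.3% and 62.0% against 2.52% and 8.21%. Cells with T and NK markers in the EAE ROS- libraries are set beside them, although NK cells can express Cst7 and Tyrobp. They are no clean background: by the fixed rule they held the microglia markers at 1035 and 563 CPM and the monocyte markers at 2142 and 3184 CPM, so doublets or myeloid cells among them cannot be told apart from free RNA. The thinned share for Cst7 was 17.5% (11.1 to 25.8) of these 114 cells, whose median depths were 8880 and 6710 UMIs. It was 14.5% (6.50 to 26.7) of the 55 cells whose T and NK marker UMIs outnumbered those of the microglia and of the monocyte list, at median depths of 5603 and 5348 UMIs.

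A Cd63 UMI was seen in 86.1% (80.3 to 90.7) and 87.3% (77.3 to 94.0) of EAE microglia, against 39.5% (37.0 to 42.0) and 45.2% (36.2 to 54.3) of healthy microglia and 29.8% (21.6 to 39.1) of the 114 and 16.4% (7.77 to 28.8) of the 55 T and NK cells. Cd72 was seen in 32.1% and 32.4% of EAE microglia, in 2.15% and 0% of healthy microglia, and in 10.5% (5.56 to 17.7) of the 114 and 3.64% (0.443 to 12.5) of the 55 T and NK cells. Under the limit of 3 counts used here for zeros, the 0 of 124 healthy cells allows up to 2.42% of cells with a Cd72 UMI. For Cd63 and Cd72 the intervals in both EAE libraries lay above those of either set of T and NK cells. For Cst7 this held in replicate 1, and the intervals overlapped in replicate 2.

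Clec7a was different. It was seen in 37.4% (30.5 to 44.8) and 22.5% (13.5 to 34.0) of EAE microglia but also in 36.8% (28.0 to 46.4) of the 114 T and NK cells and 18.2% (9.08 to 30.9) of the 55. The intervals in both EAE libraries overlapped those of both sets. In healthy microglia it was 3.51% and 3.23%. Itgax was seen in 11.8% and 4.23% of EAE microglia, 0.260% and 0% of healthy microglia and 2.63% (0.546 to 7.50) of the 114 and 5.45% (1.14 to 15.1) of the 55 T and NK cells, with overlapping intervals for the smaller EAE library in the first set and for both in the second. The Clec7a and Itgax shares per cell are therefore not read as expression by each cell.

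Trem2 and Tyrobp were seen in most microglia of either condition, and in 25.4% and 77.2% of the 114 T and NK cells (18.2% and 60.0% of the 55). A Trem2 UMI was in 90.4% and 76.1% of EAE and 96.2% and 97.6% of healthy microglia, and a Tyrobp UMI in 99.5% and 95.8% against 98.8% and 100%. Cd9 was in 89.3% and 77.5% of EAE and 82.4% and 93.5% of healthy microglia. Igf1 was in 0.535% and 0% of EAE microglia and 0.0651% and 0% of healthy ones.

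**Figure D3:**
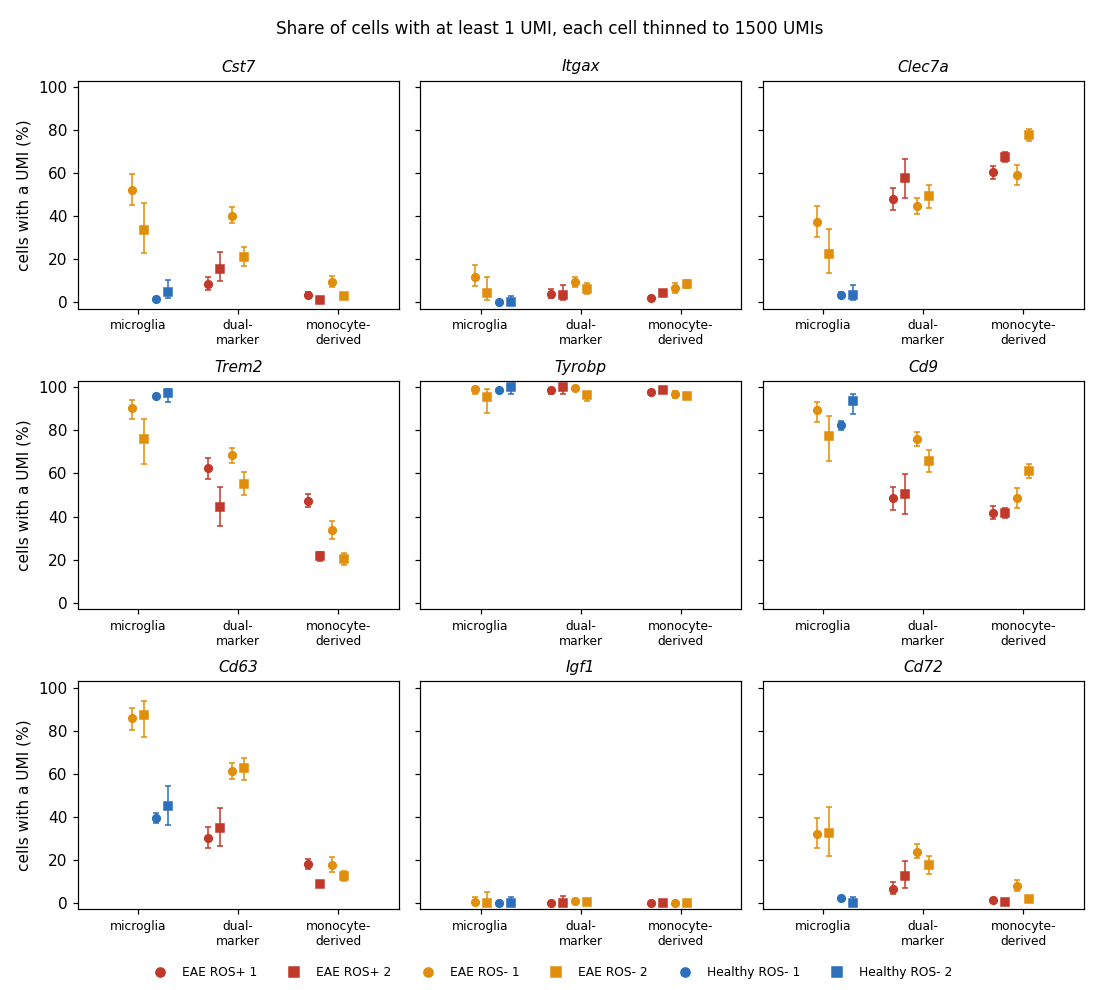
Share of cells with at least 1 UMI of each member after thinning every cell to 1500 UMIs (y axis, percent) by class (x axis) and library (points, coloured by group), with exact Clopper-Pearson 95% intervals. For Cst7, Cd63 and Cd72 EAE microglia stand above healthy microglia and monocyte-derived cells, and for Clec7a monocyte-derived cells stand highest.

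The members were also counted within each cell. The median number of the 9 seen per thinned cell was 5 and 4 in EAE ROS- microglia and 3 in both healthy libraries. Among dual-marker cells it was 4 in both EAE ROS- libraries and 3 in both EAE ROS+ libraries. Among monocyte-derived cells it was 3 except in EAE ROS+ replicate 2, where it was 2. Among T and NK cells by the fixed rule it was 2 in both EAE ROS- libraries, with up to 6 in a cell. These counts include Clec7a and Itgax, whose shares per cell are not read as expression by each cell. No microglial cell showed all 9, and the highest was 8 in EAE ROS- replicate 1, 7 in replicate 2, and 6 and 5 in the healthy libraries. At 1000 UMIs per cell the medians in microglia were 4 and 3 in EAE and 3 in both healthy libraries, so the medians then overlapped between the conditions.

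**Figure D4:**
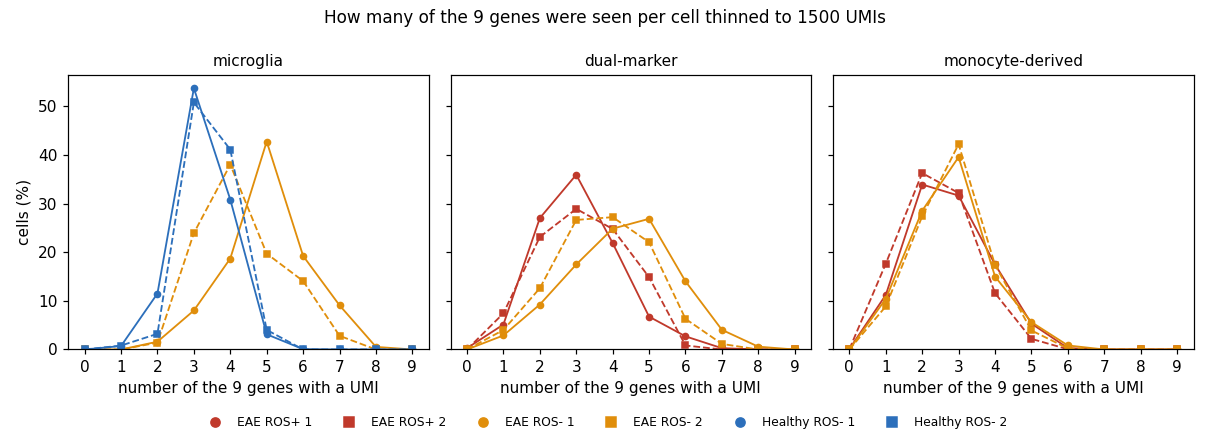
Percentage of cells (y axis) by the number of members with a UMI (x axis, 0 to 9) in cells thinned to 1500 UMIs, for each class (panel) and library (line). In microglia the EAE ROS- lines are centred on 5 and 4 members and the healthy lines on 3.

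Within the EAE spinal cord the members fell into those higher in microglia, one higher in monocyte-derived cells and those not called either way. Of the 9 members tested, 5 were higher in microglia than in monocyte-derived cells, Clec7a was lower, and Itgax, Tyrobp and Cd9 were not called. Of all 11750 genes tested, 12.7% were higher and 14.2% lower (the same edgeR test and threshold, with the library as a block). The microglia entering this test came from the EAE ROS- libraries alone.

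Cst7 stood at 20.2 and 10.1 CPM in monocyte-derived cells of EAE ROS+ and 61.4 and 21.3 CPM in those of EAE ROS-, all below the 314 and 724 CPM of EAE microglia. The log2 fold change was 3.35 ± 0.16 (edgeR adjusted p = 2.21e-09). The Cst7 level in monocyte-derived cells was 8.47% and 6.79% of that in microglia of the same EAE ROS- library. For 2 genes that were higher in microglia and served no class rule, these percentages were 14.2% and 4.11% (the receptor Cx3cr1) and 3.69% and 1.51% (the matrix gene Sparc). Whether monocyte-derived cells themselves express Cx3cr1 was not tested. The percentage of Cst7 lay between those of Cx3cr1 and Sparc in replicate 1 and above both in replicate 2.

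Cd72 was at 10.5, 3.01, 47.4 and 12.2 CPM in monocyte-derived cells of EAE ROS+ replicates 1 and 2 and EAE ROS- replicates 1 and 2. All 4 lay below both microglial values, with a log2 fold change of 3.35 ± 0.36 (edgeR adjusted p = 5.46e-06). Cd63 was at 194, 115, 158 and 142 CPM in the same order, again all below microglia, with a log2 fold change of 2.74 ± 0.28 (edgeR adjusted p = 3.08e-06). Relative to microglia these levels were 14.8% and 4.49% for Cd72 and 9.96% and 9.43% for Cd63 in the EAE ROS- libraries.

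Trem2 was at 499, 199, 362 and 175 CPM in monocyte-derived cells, below the 1417 and 896 CPM of EAE microglia in every library. Its log2 fold change was 1.71 ± 0.18 (edgeR adjusted p = 3.66e-06). At 25.5% and 19.5% of the microglial level in EAE ROS- libraries, Trem2 in monocyte-derived cells exceeded the percentages of Cx3cr1 and Sparc in both. Igf1 was called higher in microglia (log2 fold change 2.17 ± 0.69, edgeR adjusted p = 0.0280), but the call came from 11 UMIs of EAE ROS- replicate 1. In replicate 2 no Igf1 UMI was seen in microglia, and without replicate 1 the call was lost (edgeR adjusted p = 0.650), as it was with DESeq2 (adjusted p = 0.0624).

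Clec7a went the other way, at 829, 1212, 923 and 1710 CPM in monocyte-derived cells against 323 and 205 CPM in microglia, with no overlap and a log2 fold change of -2.28 ± 0.28 (edgeR adjusted p = 2.09e-05). Itgax was at 18.4, 33.1, 42.9 and 59.5 CPM in monocyte-derived cells, so that its range reached into the 52.9 and 79.8 CPM of microglia. The log2 fold change of Itgax was 0.23 ± 0.30 (edgeR adjusted p = 0.612) and changed sign without EAE ROS- replicate 1 (-0.48, edgeR adjusted p = 0.574). Tyrobp, at 2464 to 3035 CPM in monocyte-derived cells, differed from microglia by 0.11 ± 0.16 on the log2 scale (edgeR adjusted p = 0.665).

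Cd9 was at 495, 620, 528 and 1043 CPM in monocyte-derived cells, all below the 2418 and 1097 CPM of microglia, with a log2 fold change of 0.66 ± 0.35 that did not pass (edgeR adjusted p = 0.182). The call for Cd9 depended on the setting. It passed without EAE ROS- replicate 2 (1.37, edgeR adjusted p = 0.00787), with classes by UMI share (1.02, edgeR adjusted p = 0.00189) and with thinned cells (0.94, edgeR adjusted p = 5.88e-05), and its sign turned without EAE ROS- replicate 1 (-0.36, edgeR adjusted p = 0.231).

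**Figure D5:**
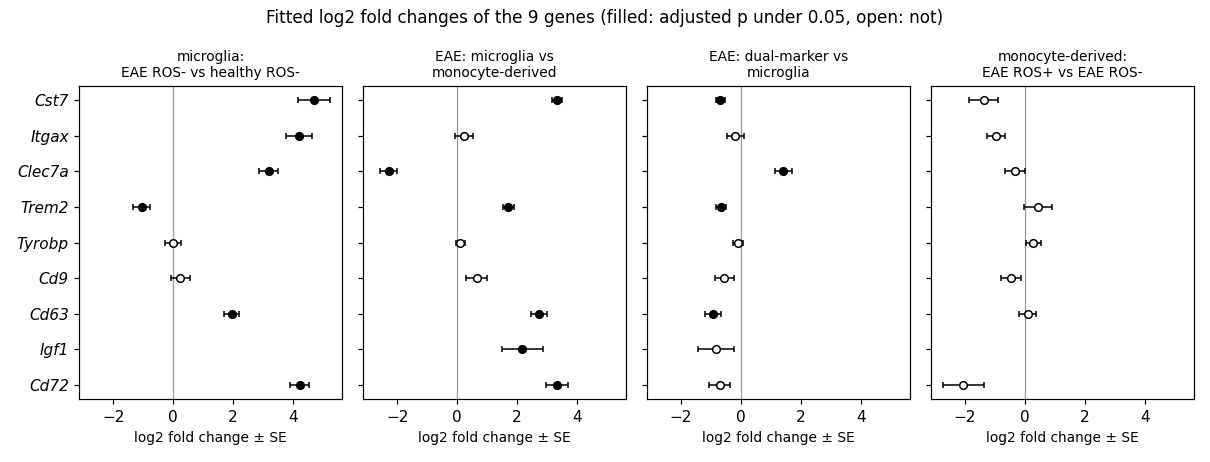
Log2 fold changes of the members from edgeR (x axis, points with SE bars) in 4 comparisons (panels); filled points passed the Benjamini-Hochberg threshold of 0.05 and open points did not. Cst7, Cd63 and Cd72 are to the right in the first 2 panels, Clec7a is to the right in the first and to the left in the second, and every point in the last panel is open.

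Dual-marker cells lay between the other classes for Cst7, Trem2, Cd63 and Clec7a, where a mixture of those classes would also lie. By UMI share, dual-marker cells of EAE ROS- replicates 1 and 2 had medians of 12884 and 10934 UMIs. Microglia by that rule had 6482.5 and 4759, and monocyte-derived cells 7421 and 6627. The part of doublets was not tested. In dual-marker cells 5 members were higher than in monocyte-derived cells and Clec7a was lower. Of all genes tested, 13.3% were higher and 11.9% lower (edgeR, as above). The log2 fold changes were 2.66 ± 0.12 for Cst7, 2.63 ± 0.27 for Cd72, 1.80 ± 0.21 for Cd63, 1.32 ± 0.42 for Igf1, 1.04 ± 0.13 for Trem2 and -0.87 ± 0.19 for Clec7a. The call for Igf1 was lost without EAE ROS- replicate 1 (edgeR adjusted p = 0.176) and without replicate 2 (edgeR adjusted p = 0.110). Against microglia, Clec7a was higher by 1.41 ± 0.28 and Cst7, Trem2 and Cd63 were lower, by -0.69 ± 0.15, -0.67 ± 0.17 and -0.94 ± 0.26. Of all genes, 4.14% were higher and 1.07% lower in that comparison. Only Clec7a kept its call there when each library was left out in turn. Trem2 and Cd63 lost theirs without either EAE ROS- library or EAE ROS+ replicate 2 (edgeR adjusted p from 0.0778 to 0.250), and Cst7 without EAE ROS- replicate 1 (edgeR adjusted p = 0.395). With classes by UMI share the Cst7 difference was -0.11 (edgeR adjusted p = 0.829) and with thinned cells -0.18 (edgeR adjusted p = 0.878).

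The gates differed within the dual-marker class, where cells with a high microglia share were rarer in EAE ROS+. Cst7 was at 101 and 74.8 CPM in dual-marker cells of EAE ROS+ and at 419 and 206 CPM in those of EAE ROS-. Cd63 was at 334 and 398 CPM against 1006 and 817 CPM, and Cd72 at 44.5 and 76.3 CPM against 189 and 117 CPM. For these 3 genes both ROS+ values lay below both ROS- values. So they did for Cd9 (520 to 554 against 954 to 1495 CPM), Itgax (27.3 to 27.9 against 47.5 to 66.8) and Igf1 (0.779 to 1.92 against 2.93 to 4.58). With the class drawn by UMI share, Cd63 alone of the first 3 stayed lower, at 578 and 629 against 1010 and 868 CPM. Cd9 (711 to 784 against 919 to 1308 CPM) and Itgax (18.9 to 36.5 against 50.3 to 73.4) also stayed lower, and Igf1 overlapped. Cst7 was then at 260 and 214 against 438 and 238 CPM and Cd72 at 121 and 167 against 181 and 110 CPM, with overlap for both. Trem2 (734 and 425 against 949 and 571 CPM) and Clec7a (572 and 858 against 543 and 822 CPM) overlapped between the gates. No test between gates was made in this class.

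In monocyte-derived cells the gates were compared directly, and none of the 8 members tested was called (edgeR). The background was 0% of 11234 genes higher and 0% lower, with 411 genes and 3 members, Cst7, Itgax and Cd72, at an unadjusted p under 0.05. DESeq2 called 19 genes and 0 members. With the replicate number as a block, 3 members were called, beside 98 of 11234 genes, as given below. The labels do not say what a replicate number shares. Without the block, the log2 fold change of ROS+ over ROS- was -1.38 ± 0.49 for Cst7, -0.98 ± 0.30 for Itgax and -2.06 ± 0.67 for Cd72 (edgeR adjusted p = 0.9997 for each). For Cst7, Itgax and Cd72 both ROS+ libraries lay below both ROS- libraries, by the CPM given above. The other 5 members tested had log2 fold changes from -0.47 for Cd9 to 0.43 for Trem2. Without EAE ROS- replicate 2, Cst7 (-1.97, edgeR adjusted p = 0.0202) and Cd72 (-2.77, edgeR adjusted p = 0.00988) passed.

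The 9 microglia markers together made up 59.8 and 41.0 CPM in monocyte-derived cells of EAE ROS+ replicates 1 and 2 and 97.0 and 51.6 CPM in those of EAE ROS- replicates 1 and 2. EAE ROS- replicate 1 was thus highest for these markers as well as for Cst7 and Cd72. The part of microglial RNA in these gate differences was not tested.

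Microglia of the ROS+ gate were too few for a test: the comparison of EAE ROS+ with EAE ROS- microglia, and that of the gate difference between classes, could not be fitted with 0 and 1 cells. By UMI share there were 11 microglia in EAE ROS+ replicate 1 and 6 in replicate 2. In the 11 cells Cst7 was at 841 CPM (exact Poisson 95% interval 685 to 1022), Cd63 at 1366 (1165 to 1592), Cd72 at 208 (135 to 307), Trem2 at 1516 (1304 to 1753) and Clec7a at 366 (266 to 492). In the 6 cells Cst7 was at 231 CPM (99.9 to 456), Cd63 at 1446 (1074 to 1907), Cd72 at 174 (63.7 to 378), Trem2 at 810 (538 to 1171) and Clec7a at 174 (63.7 to 378). EAE ROS- microglia by the same rule had Cst7 at 670 and 254 CPM, Cd63 at 1617 and 1396, Cd72 at 322 and 280, Trem2 at 1413 and 970 and Clec7a at 283 and 173. Cd9 was at 3132 CPM (2823 to 3465) in the 11 cells and 289 CPM (139 to 532) in the 6, so the ROS+ libraries differed beyond counting error. For Cd63, Cd72, Trem2 and Clec7a the interval of each ROS+ library held at least one ROS- value, and for Cst7 only that of replicate 2 did. These cells are so few that no difference or likeness between the gates is drawn from them.

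Libraries were also compared by the sum over all of their cells. In such a sum, fewer cells of a type and less RNA per cell cannot be told apart. Against healthy libraries, EAE ROS- libraries were higher for Cst7, Itgax, Clec7a and Cd72 and lower for Trem2, 5 of 9 members, where 19.9% of 13631 genes were higher and 14.0% lower (edgeR, adjusted p under 0.05). The log2 fold change of Clec7a was 5.45 ± 0.47, larger than its 3.19 in microglia alone, with levels of 633 and 1375 CPM in EAE ROS- and 31.4 and 33.9 CPM in healthy libraries. That of Itgax was 4.41 ± 0.33, of Cst7 3.47 ± 0.82, of Cd72 2.65 ± 0.55 and of Trem2 -1.82 ± 0.50. Without healthy replicate 1 the calls for Cst7 (2.51, edgeR adjusted p = 0.122), Trem2 (-2.002, 0.0772) and Cd72 (2.23, 0.107) were lost. The Trem2 call was also lost without healthy replicate 2 (-1.60, edgeR adjusted p = 0.107) and without EAE ROS- replicate 2 (-1.32, edgeR adjusted p = 0.0511). Cd63, at 0.87 ± 0.32 (edgeR adjusted p = 0.0648), passed without EAE ROS- replicate 2 (1.24, edgeR adjusted p = 0.00938) and without EAE ROS+ replicate 2 (0.88, edgeR adjusted p = 0.0495). It also passed with no filter on low counts (0.94, edgeR adjusted p = 0.00205) and with DESeq2 (0.86, adjusted p = 0.0485).

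Between the gates in all cells, only Cd72 was called. It was at 21.9 and 10.5 CPM in EAE ROS+ and at 150 and 52.5 CPM in EAE ROS-, with no overlap and a log2 fold change of -2.44 ± 0.50 (edgeR adjusted p = 0.0405). Of all genes, 0.125% were higher and 2.04% lower in EAE ROS+. Cst7 was at 324 and 95.1 CPM in EAE ROS- and 47.8 and 16.8 CPM in EAE ROS+ and did not pass (log2 fold change -2.50 ± 0.72, edgeR adjusted p = 0.137), nor did Cd63, at 761 and 408 CPM against 239 and 156 CPM (-1.38 ± 0.32, edgeR adjusted p = 0.0661). The Cd72 call was lost without EAE ROS- replicate 1 (-1.53, edgeR adjusted p = 0.122), without EAE ROS+ replicate 2 (-1.999, 0.182) and without healthy replicate 1 or 2 (-2.44 in both, 0.114 and 0.105). Without EAE ROS- replicate 2, Cst7 (-3.10, edgeR adjusted p = 0.00184) and Cd63 (-1.73, edgeR adjusted p = 0.00240) passed as well. With the replicate number as a block, 3 members were called, beside 596 of 13631 genes, as given below. Microglia and dual-marker cells were 11.6% and 42.9% of EAE ROS- replicate 1, 4.64% and 22.8% of replicate 2, 0% and 21.2% of EAE ROS+ replicate 1, and 0.0448% and 5.42% of replicate 2.

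Most other listed genes of the disease-associated state also rose in microglia. The list was chosen with earlier results of these data known, and its genes had been tied to that state beforehand. Of 28 further genes of that programme, 18 rose and 2 fell in EAE over healthy microglia (edgeR, adjusted p under 0.05), with a median log2 fold change of 1.52. Of all genes tested, 11.8% were higher and 9.13% lower. Some of the 28, Gpnmb among them, were higher in monocyte-derived cells, as given below. The part of free monocyte RNA in these rises was not tested. Spp1, which encodes the secreted protein osteopontin, was up by 4.86 ± 0.59 on the log2 scale, and Lilrb4, an inhibitory receptor, by 5.22 ± 0.38. Reads of Lilrb4 may be shared with its near-identical neighbour Gp49a, so its value is uncertain. Ch25h, the cholesterol 25-hydroxylase, and the glycoprotein Gpnmb also rose, from 3 and 1 UMIs in healthy microglia to 106 and 32 UMIs. Their ratios of CPM were 126 (counting interval 41.8 to 619) and 114 (19.0 to 4633). The protease inhibitor Serpine2 (-1.38 ± 0.29) and the chemokine Ccl6 (-1.0002 ± 0.256) fell.

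The same 28 genes split between the classes in EAE. Against monocyte-derived cells, 12 were higher in microglia, led by the adhesion molecule Cadm1 (4.76 ± 0.31), Serpine2 (4.65 ± 0.26), Ch25h (3.36 ± 0.41) and the metalloproteinase inhibitor Timp2 (3.26 ± 0.26). Another 9 were lower, led by the lysozyme Lyz2 (-3.29 ± 0.21), the galectin Lgals3 (-3.27 ± 0.27), the fatty acid-binding protein Fabp5 (-2.66 ± 0.23) and Gpnmb (-2.50 ± 0.27), in the direction of Clec7a. Of all genes tested, 12.7% were higher in microglia and 14.2% lower. In dual-marker cells, 8 of the 28 were higher than in microglia, led by Lgals3, Lyz2, Fabp5 and Gpnmb. Another 4 were lower, namely the chemokines Ccl3 and Ccl4 and the cathepsins Ctsl and Ctsd. Of all genes tested, 4.14% were higher and 1.07% lower in dual-marker cells.

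A list of 17 genes held those that work with or downstream of Trem2, Tyrobp and Clec7a, and also the relative Treml2. In microglia 16 were tested, of which 1 rose and 4 fell in EAE and 11 were not called. Their median log2 fold change was -0.12. Of all 7515 genes tested, 11.8% were higher, 9.13% lower and 5944 not called. Treml2, a relative of Trem2 in the same receptor family, rose by 2.55 ± 0.47, on 42 UMIs in EAE and 30 in healthy microglia. The kinase Syk, used by both Tyrobp and Clec7a, was lower, at -1.002 ± 0.323. Also lower were Sirpa (-1.06 ± 0.26), an inhibitory receptor for CD47, Bcl10 (-0.84 ± 0.29), a scaffold downstream of Clec7a, and the lipid phosphatase Inpp5d (-0.73 ± 0.25). Between the classes in EAE, 5 of 17 were higher in microglia, among them Pik3ap1, Inpp5d, Btk and Lyn, beside 12.7% of all genes tested. Another 4 were lower, namely Malt1 (-2.82 ± 0.44), Syk (-1.37 ± 0.25), Bcl10 (-1.07 ± 0.20) and Grb2 (-0.79 ± 0.16), beside 14.2% of all genes tested. The value of Malt1 rests on 10 UMIs in EAE microglia.

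Of 9 further tetraspanins, the leukocyte protein Cd53 fell in EAE microglia (-0.93 ± 0.25) and 8 were not called, beside 9.13% of all genes lower. Against monocyte-derived cells 6 were higher in microglia, beside 12.7% of all genes tested. The largest differences were those of Tspan7 (5.07 ± 0.38), Cd81 (4.73 ± 0.24), Cd37 (1.91 ± 0.25) and Tspan4 (1.78 ± 0.33). Among 11 partners of the other members, 9 were tested in microglia, where 4 rose and 1 fell. Of all genes tested there, 11.8% were higher and 9.13% lower. Itgb2, the beta chain that pairs with Itgax, rose by 1.204 ± 0.251. Itgal, an alpha chain that shares it, rose from 1 UMI to 51 (ratio of CPM 181, counting interval 31.1 to 7302). Ctsc, a cathepsin inhibited by cystatin F, rose by 2.32 ± 0.25 and the cystatin Cstb by 2.49 ± 0.27, while Igfbp4, a binding protein of Igf1, fell (-1.17 ± 0.39). Against monocyte-derived cells 3 of 10 partners were higher in microglia, namely the cysteine protease Lgmn (2.72 ± 0.26), Igfbp4 (2.001 ± 0.545) and Itgam (0.64 ± 0.16), the CD11b chain. Cstb (-2.29 ± 0.20) and Itgb2 (-0.59 ± 0.18) were lower. Of all genes tested, 12.7% were higher in microglia and 14.2% lower.

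Of 15 homeostatic microglia genes that served no class rule, 10 fell in EAE microglia and 5 were not called. Their median log2 fold change was -0.92, and 9.13% of all genes tested were lower. The largest falls were those of Ltc4s (-2.74 ± 0.27), Cst3 (-2.51 ± 0.26), Selplg (-1.75 ± 0.24) and P2ry13 (-1.72 ± 0.28), in the same sums in which Cst7 was higher. Against monocyte-derived cells 13 of the 15 were higher, beside 12.7% of all genes tested. The largest differences were those of Sparc (5.11 ± 0.22), Crybb1 (4.75 ± 0.30), Mef2c (3.25 ± 0.34) and Ltc4s (3.25 ± 0.28).

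The genes whose levels ran most like those of a member were sought over 12 sums of class and library, by Pearson r of log2(CPM + 1) among 5132 genes that had a mean of at least 20 CPM and were no class markers. The sums share libraries and their free RNA, so the values are a description. The chemokine Cxcl13 (r = 0.98) and Cd72 (0.95) ran most like Cst7. Cox6a2 (0.96) and Cst7 (0.95) ran most like Cd72, so that Cst7 and Cd72 named each other. Gusb (0.99), a lysosomal glucuronidase, and Commd9 (0.97) were nearest to Cd63, and Fam53a (0.99) and Rgs10 (0.99) to Trem2. Bhlhe40 (0.99) and Pfkp (0.99) were nearest to Clec7a, Acot9 (0.97) and B2m (0.96) to Itgax, Plbd2 (0.95) and Ufl1 (0.92) to Cd9, and Cmas (0.92) and Lpl (0.90) to Tyrobp. The nearest to Igf1, Ncstn and Galnt7, reached 0.82 each, in a gene of 0 to 35 UMIs per sum.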

How the data were processed

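RNA of CD11b+ spinal cord cells was measured in 6 droplet libraries. The values are whole-number UMI counts for each gene in each barcode, deposited as sparse matrices. The submitters' processing notes name Cell Ranger 2.0.1, Seurat 3, R 3.4.2 and mm10, without the role of each. The sources used here do not give the annotation or how cells were called.

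Of the barcodes, 1 was removed for having under 200 genes or over 10% mitochondrial UMIs. No doublet caller was run, so dual-marker cells may include doublets. Classes came from marker UMIs, after cells with at least 2 markers of another lineage had been set aside. Counts were summed per library, or per class with at least 20 cells in a library, and the CPM printed are over plain totals. Library totals ran from 915197 to 23407825 UMIs, which sets the counting error. Intervals and floors cover counting error only. The tests were those of edgeR 4.0.16, run under R 4.3.3 (TMM scaling, filterByExpr at a minimum of 10 counts, quasi-likelihood F test), with p-values adjusted by Benjamini-Hochberg over all genes tested. The 3 groups shared 1 fit for all cells. Class fits in EAE used the library as a block. DESeq2 1.42.0 was an alternative, beside other scalings, filters, class rules and left-out libraries; a lone library left in a group is then assumed to vary like the others. Code was tested on simulated data. Python 3.11.15 and matplotlib 3.10.9 were used for the rest.

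The members, gene lists and tests were chosen with earlier results of these data known. Text names the called members in every comparison, but not every uncalled one. It also names up to 4 called genes per direction of a list by size of change, and the 2 genes most like each member. Arg1, Lyz2, S100a4, Cx3cr1 and Sparc were added as reference genes after the data were seen, and 1 further reference gene is not reported here. Promoter letters are from RefSeq for GRCm38.p6, with entries for 8 of the 9 members.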

Additional observations from a re-analysis of the deposited data

How the results depend on the processing

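The rises of Cst7, Itgax, Clec7a, Cd63 and Cd72 in EAE microglia were called in every alternative run. Of 850 values for single members or counts over all genes under an alternative, 684 kept their direction and call, 33 lost and 34 gained a call, 58 turned in sign and 41 counts over all genes moved by over 1.5 times. The number of members called between EAE ROS- and healthy libraries was 5, and 2 to 6 with 1 library left out. Between the gates in all cells it was 1, but 2 with DESeq2, 4 with no filter, 0 with EAE libraries only, and 0 to 3 with 1 library left out. In monocyte-derived cells it was 0, but 3 with no filter and 0 to 2 with 1 library left out. For dual-marker cells against microglia it was 4, but 6 with no filter, 5 in EAE ROS- libraries only, 3 with DESeq2, 3 markers, thinned cells or the UMI share, 1 with 1 marker per class and 1 to 4 with 1 library left out. Over all genes, with the range over alternatives, the calls were 4629 (2364 to 5367) for all cells of EAE ROS- against healthy, 295 (123 to 1839) for all cells between gates, 1571 (588 to 2385) for microglia and 0 (0 to 112) for gates in monocyte-derived cells. They were 3161 (820 to 4909) for microglia against monocyte-derived cells, and for dual-marker cells 612 (163 to 1316) against microglia and 2955 (897 to 3873) against monocyte-derived cells. The microglial Trem2 fall was -0.45 and not called with 1 marker per class (edgeR adjusted p = 0.484).

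Whether the replicate numbers pair the libraries is not settled: the labels do not say what a number shares, and deviations of same-numbered libraries correlated at 0.42 between the EAE gates and at -0.04 and 0.02 otherwise. With the replicate number as a block, 3 members were called between gates in all cells, beside 596 of 13631 genes. In EAE libraries only it was 6 members, beside 1839 of 12851 genes. In monocyte-derived cells 3 members were called, beside 98 of 11234 genes, where the unblocked test called 0 of either. They were Cst7 (-1.32, edgeR adjusted p = 0.000452), Itgax (-0.99, 0.00578) and Cd72 (-2.07, 6.40e-06). The block also gave a call to Cd63 in all cells of EAE ROS- against healthy (0.80, edgeR adjusted p = 0.0434).

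Signs turned for genes that were not called, except Igf1 in microglia against monocyte-derived cells, which was called. In EAE against healthy microglia Tyrobp was 0.022 with DESeq2 size factors, 0.021 with DESeq2, 0.019 with no filter, 0.067 with 3 markers, 0.27 with 1 marker, 0.036 thinned, 0.033 with other lineages kept and 0.10 by UMI share. Cd63 between gates in monocyte-derived cells was -0.46 thinned and -0.087 by UMI share. In microglia against monocyte-derived cells Itgax was -0.25 with 1 marker, -0.059 thinned and -0.071 by UMI share. In dual-marker cells against microglia Itgax was 0.10 with 3 markers, 0.066 with 1 and 0.11 by UMI share, and Igf1 0.30 with 1 marker and 0.47 by UMI share. Against monocyte-derived cells Tyrobp was -0.012 with size factors and with DESeq2, -0.0096 with no filter, -0.038 in EAE ROS+ only, -0.031 with 3 markers and -0.066 by UMI share, Itgax -0.0064 with DESeq2, -0.026 in EAE ROS- only, -0.19 with 1 marker and -0.45 thinned, and Cd9 -0.13 in EAE ROS+ only.

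With 1 library left out, ranges crossed 0 as follows. In all cells against healthy, Tyrobp ran from -0.074 to 0.23 and Cd9 from -0.41 to 0.11, and between gates Clec7a from -0.39 to 0.80 and Trem2 from -1.09 to 0.50. In microglia Tyrobp ran from -0.41 to 0.35 and Cd9 from -0.58 to 0.78. In monocyte-derived cells between gates Clec7a ran from -0.73 to 0.19, Trem2 from -0.41 to 1.03, Cd9 from -0.89 to 0.12 and Cd63 from -0.37 to 0.44. In microglia against monocyte-derived cells Itgax ran from -0.48 to 0.54, Tyrobp from -0.28 to 0.30, Cd9 from -0.36 to 1.37 and Igf1 from -5.37 to 2.38. In dual-marker cells against microglia Itgax ran from -0.28 to 0.36, Tyrobp from -0.25 to 0.21, Cd9 from -1.02 to 0.14 and Igf1 from -1.15 to 6.61. Against monocyte-derived cells Itgax ran from -0.12 to 0.28, Tyrobp from -0.075 to 0.074 and Cd9 from -0.22 to 0.35. The cause was not tested for any of these. Comparisons of ROS+ microglia could not be fitted.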

Other observations

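Cells set aside from the classes gave values for 2 other cell types of the EAE ROS- libraries, each thinned to 1500 UMIs. Mature dendritic cells, 174 by their markers, showed an Itgax UMI in 11.5% (exact Clopper-Pearson 95% interval 7.16 to 17.2), against 2.63% (0.546 to 7.50) of 114 T and NK cells. In the 55 T and NK cells called by UMI share it was 5.45% (1.14 to 15.1), and the intervals overlapped. Itgax, the CD11c chain, is a usual marker of dendritic cells. A Clec7a UMI was in 62.1% (54.4 to 69.3) of the dendritic cells and a Tyrobp UMI in 86.2% (80.2 to 91.0). Cst7 was in 14.9% (10.0 to 21.1) of them and Cd72 in 5.17% (2.39 to 9.59). Trem2 was in 14.9% (10.0 to 21.1) of dendritic cells and 25.4% (17.7 to 34.5) of T and NK cells. Cd63 was in 30.5% and 29.8%, and Cd9 in 35.6% and 40.4%. No Igf1 UMI was seen in either. By UMI share only 22 and 49 cells were dendritic. Their mean levels were lower than by the fixed rule for Cst7 (59.8 against 171 CPM) and Trem2 (108 against 331 CPM). They were higher for Cd63 (602 against 467 CPM) and Clec7a (1028 against 983 CPM). The part of other myeloid cells or free RNA in the values of the 174 cells was not tested.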
